A study of Homo sapiens with 4 samples.

Results

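The genes described here are 35 genes of protein folding and protein disposal in the endoplasmic reticulum (ER), chosen by symbol from the 56655 gene symbols of the count tables. The 9 folding enzymes among them are HSP90B1, CALR, CANX, P4HB, PDIA3, PDIA4, PDIA5, PDIA6 and ERO1B, and the 9 degradation genes are EDEM1, EDEM2, EDEM3, SYVN1, SEL1L, DERL1, DERL2, DERL3 and HERPUD1. The other 17 are cochaperones, stress-induced luminal proteins, lectins and the factors that extract proteins from the membrane. RNA-seq libraries came from OVCAR-5, an established ovarian cancer cell line labelled as high grade serous and derived from ascites, kept at passages 4 to 6 in RPMI with serum. Cells were transduced with a control short hairpin RNA (shCtrl, n = 2 libraries) or with one against the forkhead transcription factor gene FOXK2 (shFOXK2, n = 2 libraries). The study's methods describe stable lentiviral lines with a nontargeting pLKO.1-puro hairpin as control, and its legends name 1 FOXK2 hairpin for the RNA-seq. No label says whether the libraries of a group came from separate cultures. The study states that n counts biological replicates, and a legend gives n = 2 for this RNA-seq. How these replicates were made is not described. The p-values therefore measure the spread between these libraries, which may be technical.

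Proteins that enter the secretory pathway fold in the ER lumen. Chaperones such as BiP (HSPA5) and GRP94 (HSP90B1) hold unfolded chains, the lectins calreticulin and calnexin hold chains that carry trimmed sugars, and disulfide isomerases form and reshuffle disulfide bonds. Chains that do not fold are recognized through their trimmed mannose residues, passed through a membrane complex built around the ligase SYVN1 (HRD1) and its partner SEL1L, pulled into the cytosol by the ATPase VCP (p97) and degraded by the proteasome, a route called ER-associated degradation (ERAD). The unfolded protein response (UPR), signalled by IRE1α (ERN1) with XBP1, by ATF6 and by PERK (EIF2AK3), is known to raise the transcription of both sets of genes.

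The sequences through which ATF6 and XBP1 are known to act were looked for first, because these members are the textbook examples of genes that carry them. RefSeq promoter windows of assembly GRCh38.p14, each from 250 bases before to 50 bases after an annotated start site, were found for 31 of the 35 genes, in 37 windows. PDIA3, FKBP14, DERL1 and DERL3 had none. The ER stress response element was searched as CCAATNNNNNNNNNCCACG and its shorter form ERSE-II as ATTGGNCCACG, on both strands. The lines below give each different match 5′ to 3′ on the strand that matches, with the fixed letters in capitals.

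HSP90B1, from 194 to 176 bases before the start: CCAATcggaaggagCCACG

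HSP90B1, from 89 to 71 bases before the start, opposite strand: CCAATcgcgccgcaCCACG

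CALR, from 225 to 207 bases before the start, opposite strand: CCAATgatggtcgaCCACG

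CANX, from 151 to 133 bases before one of its annotated starts: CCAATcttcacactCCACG

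PDIA6, from 86 to 68 bases before the start: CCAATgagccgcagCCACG

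ERO1B, from 243 to 225 bases before the start, opposite strand: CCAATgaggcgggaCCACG

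CRELD2, from 80 to 62 bases before the start, opposite strand: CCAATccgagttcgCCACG

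HYOU1, from 185 to 175 and again from 79 to 69 bases before the start, opposite strand: ATTGGaCCACG

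SDF2L1, from 188 to 178 bases before the start, opposite strand: ATTGGtCCACG

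HERPUD1, from 117 to 107 bases before the start: ATTGGgCCACG

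The longer element was present in 6 of 31 members (19.4%) and in 0.0916% of the 27305 genes with a promoter window. ERSE-II was present in 3 of 31 members (9.68%) and in 0.0696% of all genes. Another sequence, the UPRE core TGACGTGG, was found in HYOU1, TXNDC5, TXNDC11, DNAJC10 and VCP (16.1% of members, 0.927% of all genes), and in HYOU1 it overlapped the ERSE-II match. By class, ERSE or ERSE-II occurred in 5 of 8 folding enzymes with a window and in 1 of 7 degradation genes, HERPUD1. The forkhead letters TGTTTAC were in no member's window, and in 4.19% of all genes' windows. These are matches of letters, not measured binding sites.

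For context, the 250 bases before the start are given for 3 genes, with the letters of ERSE or ERSE-II in capitals. HSP90B1 carries the longer element on both strands and was not called lower, PDIA6 carries it once and fell, and HERPUD1 is the degradation gene with a match. In the HSP90B1 sequence the element nearer the start is read on the opposite strand, so that its letters appear in reverse complement.

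HSP90B1, chr12:103930160-103930409, plus strand: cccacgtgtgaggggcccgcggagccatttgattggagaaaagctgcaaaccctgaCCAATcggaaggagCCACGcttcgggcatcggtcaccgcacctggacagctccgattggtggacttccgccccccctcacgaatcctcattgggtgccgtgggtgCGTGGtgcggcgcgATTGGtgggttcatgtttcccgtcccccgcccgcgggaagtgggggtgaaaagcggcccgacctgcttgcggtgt

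PDIA6, chr2:10812786-10813035, minus strand: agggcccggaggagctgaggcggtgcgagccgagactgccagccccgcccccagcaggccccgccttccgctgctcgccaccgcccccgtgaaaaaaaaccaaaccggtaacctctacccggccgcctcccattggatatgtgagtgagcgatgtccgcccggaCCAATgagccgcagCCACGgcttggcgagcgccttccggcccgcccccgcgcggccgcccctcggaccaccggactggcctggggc

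HERPUD1, chr16:56931892-56932141, plus strand: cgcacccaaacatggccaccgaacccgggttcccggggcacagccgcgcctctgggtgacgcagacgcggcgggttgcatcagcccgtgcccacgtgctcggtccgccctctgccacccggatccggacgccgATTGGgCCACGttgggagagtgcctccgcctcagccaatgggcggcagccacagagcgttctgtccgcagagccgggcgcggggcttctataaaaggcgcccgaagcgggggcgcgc

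Most of the listed genes had lower RNA levels in shFOXK2 cells. Of the 35 genes, 34 passed the low-count filter, and DERL3, a paralog of the membrane channel protein DERL1, did not, with counts of 0 and 2 in shCtrl and 3 and 1 in shFOXK2. By the edgeR quasi-likelihood test, 18 of the 34 fell (52.9%) and 1, UBXN4, rose, whereas 22.7% of the 16417 genes tested fell and 25.7% rose. In 25 members each shFOXK2 library was lower than each shCtrl library, a pattern seen in 36.2% of tested genes, and in 2 members each was higher, a pattern seen in 39.2%. The median log2 fold change was −0.69 over the members and 0.04 over all tested genes. The 35 genes together took 1.08% and 0.982% of all counts in shCtrl and 0.527% and 0.66% in shFOXK2. In bulk RNA, fewer cells that express a gene and less of its RNA per cell cannot be told apart.

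Library totals ran from 14284005 to 21950873 counts, so that 3 counts corresponded to 0.134 to 0.211 CPM (counts scaled to a common library total with TMM factors, the unit of every level below). FOXK2 itself was at 80.5 and 93.4 CPM in shCtrl and 76.3 and 59.6 CPM in shFOXK2, a log2 difference of −0.36 (SE 0.25) that the test did not call (adjusted P = 0.257, edgeR). In separate assays the study reports less FOXK2 mRNA by qRT-PCR, and less protein by western blot, in OVCAR5 cells with its FOXK2 hairpins. Those assays were not compared with the counts. The nuclear RNA MALAT1 took 0.0239% to 0.0427% of counts in shCtrl and 1.02% to 1.19% in shFOXK2. Its part in the results below was not tested. Of the epithelial markers EPCAM, KRT8, KRT18, KRT19 and CDH1, all 5 were expressed and summed to 3593 to 4785 CPM in shCtrl and 3436 to 4645 CPM in shFOXK2. Of these 5, 1 was called lower. WT1 and ESR1, which mark serous ovarian cancer, had at most 3 counts in every library, as had the leukocyte markers PTPRC, CD3E and CD68 and the fibroblast markers COL1A2, COL3A1 and DCN. The 5 ovarian markers, PAX8, MUC16 and MSLN included, summed to 33.3 to 37 CPM in shCtrl and 15.9 to 18.9 CPM in shFOXK2. Of the 3 ovarian markers tested, 2 were called lower and 1 higher. The 5 gastrointestinal markers (CDX2, CDH17, VIL1, LGALS4 and KRT20) summed to 221 to 249 CPM and 139 to 157 CPM, with 1 of 4 tested called lower and 1 higher. The 6 leukocyte markers summed to 18.1 to 22.6 CPM in shCtrl and 9.14 to 9.39 CPM in shFOXK2, with 1 of 1 tested called lower, and the 6 fibroblast markers to 18.9 to 20.5 CPM and 13.6 to 16.5 CPM, with 1 of 2 tested called lower. The 4 endothelial markers PECAM1, VWF, CDH5 and KDR summed to 7.72 to 10.6 CPM in shCtrl and 0.633 to 2.03 CPM in shFOXK2, and 2 of 2 tested were lower. Over all tested genes 22.7% were called lower and 25.7% higher. The part of these markers in the results below was not tested.

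**Figure D1:**
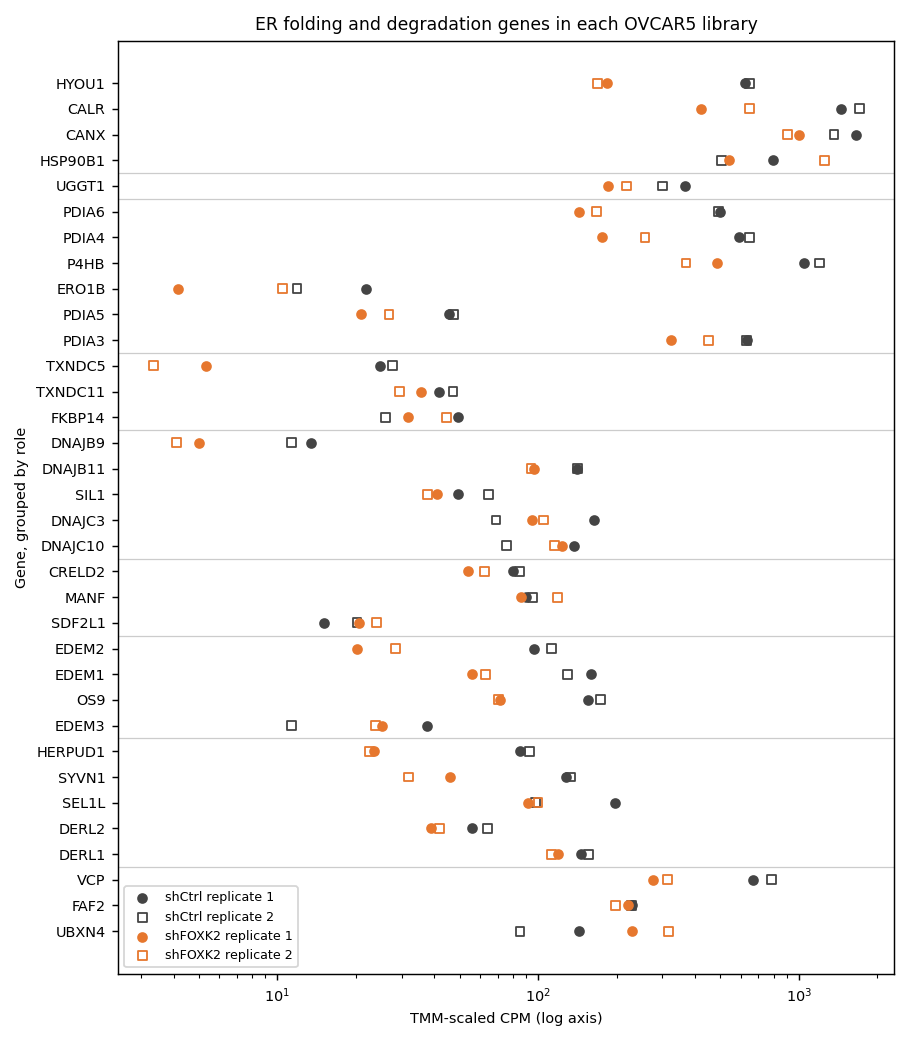
Level of each of the 34 tested genes in each of the 4 libraries, in TMM-scaled CPM on a log axis, with genes grouped by role and shCtrl in grey and shFOXK2 in orange. The shFOXK2 points lie to the left of both shCtrl points in 25 genes and to the right in UBXN4 and SDF2L1. Over all tested genes these patterns were seen in 36.2% and 39.2%.

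Among the luminal chaperones, calreticulin, calnexin and HYOU1 fell and GRP94 did not. The lower calls were 3 of 4, beside 22.7% of all tested genes. CALR encodes calreticulin, the soluble lectin chaperone, and was at 1456 and 1703 CPM in shCtrl and 423 and 649 CPM in shFOXK2. It fell to 33.9% of the shCtrl mean, by 1.56 on the log2 scale (adjusted P = 0.000444, SE 0.27, edgeR). HYOU1, a large HSP70-family protein that acts as a nucleotide exchange factor for BiP, was at 623 and 646 CPM in shCtrl and 184 and 169 CPM in shFOXK2. The replicates of HYOU1 differed little beside the distance between groups, and its log2 fold change was −1.85 (adjusted P = 4.61e-05, SE 0.23, edgeR). CANX, the membrane-bound lectin chaperone calnexin, was at 1650 and 1364 CPM in shCtrl and 999 and 902 CPM in shFOXK2. Its log2 fold change was −0.67 (adjusted P = 0.0364, SE 0.24, edgeR), and the call was lost in each of 3 fits that left out a library, shCtrl replicate 1 (adjusted P = 0.0945), shFOXK2 replicate 1 (adjusted P = 0.0787) or shFOXK2 replicate 2 (adjusted P = 0.143).

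HSP90B1, which encodes GRP94, the ER member of the HSP90 family, was at 798 and 505 CPM in shCtrl and 541 and 1250 CPM in shFOXK2. The groups overlapped, and the shFOXK2 replicates differed 2.31-fold from each other. The log2 fold change was 0.46 (adjusted P = 0.296, SE 0.35, edgeR). Its direction rested on shFOXK2 replicate 2, since without that library the log2 fold change was −0.31 (adjusted P = 0.487) and without shFOXK2 replicate 1 it was 0.94 (adjusted P = 0.0119). HSP90B1 was the only folding enzyme, of 9, that was not called lower. UGGT1, the glucosyltransferase that tags incompletely folded glycoproteins for another round with the lectin chaperones, was at 365 and 300 CPM in shCtrl and 185 and 218 CPM in shFOXK2. Its log2 fold change of −0.72 (adjusted P = 0.021, SE 0.23, edgeR) lost its call without shCtrl replicate 1 (adjusted P = 0.0675) and without shFOXK2 replicate 1 (adjusted P = 0.129).

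The disulfide isomerases and their oxidase fell as a group of 6 of 6, beside 22.7% of all tested genes. P4HB, the founding protein disulfide isomerase and a subunit of prolyl 4-hydroxylase, was at 1046 and 1202 CPM in shCtrl and 486 and 369 CPM in shFOXK2, a log2 fold change of −1.39 (adjusted P = 0.000543, SE 0.25, edgeR). PDIA4 (ERp72) was at 591 and 647 CPM in shCtrl and 176 and 257 CPM in shFOXK2, a log2 fold change of −1.51 (adjusted P = 0.000353, SE 0.25, edgeR). PDIA6, an isomerase that is known to regulate IRE1α, was at 497 and 492 CPM in shCtrl and 143 and 168 CPM in shFOXK2 and had the lowest log2 fold change of the 9 folding enzymes, −1.67 (adjusted P = 9.35e-05, SE 0.23, edgeR). In these 3 isomerases the higher shFOXK2 library stood below the lower shCtrl library by more than the distance between replicates.

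PDIA3 (ERp57), the isomerase that works with calreticulin and calnexin, fell too. It was at 634 and 629 CPM in shCtrl and 323 and 450 CPM in shFOXK2, a log2 fold change of −0.71 (adjusted P = 0.0285, SE 0.24, edgeR). PDIA5 was at 45.6 and 47.5 CPM in shCtrl and 21 and 26.8 CPM in shFOXK2, a log2 fold change of −0.96 (adjusted P = 0.00825, SE 0.26, edgeR). The calls of PDIA3 and PDIA5 were lost without shFOXK2 replicate 1, at adjusted P = 0.238 and 0.0797. The processed pseudogene PDIA3P1, which resembles PDIA3, held 1.91% of the PDIA3 count in shCtrl and 1.07% in shFOXK2. ERO1B, an oxidase that recharges P4HB, was the lowest of the 6 at 21.8 and 11.9 CPM in shCtrl and 4.15 and 10.5 CPM in shFOXK2. Its replicates differed 1.83-fold in shCtrl and 2.53-fold in shFOXK2, and its log2 fold change of −1.20 (adjusted P = 0.0302, SE 0.42, edgeR) lost the call without shCtrl replicate 1 (adjusted P = 0.185) or shFOXK2 replicate 1 (adjusted P = 0.148).

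Per kilobase of canonical transcript, the folding enzymes spanned a wide range of levels. In shCtrl, CALR stood at 831 CPM per kilobase, P4HB at 461, CANX at 307, HSP90B1 at 234, PDIA4 at 224, PDIA6 at 217, PDIA3 at 172, PDIA5 at 25.2 and ERO1B at 3.38. In shFOXK2, HSP90B1 was at 322 CPM per kilobase and CALR at 282, followed by CANX at 193, P4HB at 175, PDIA3 at 105, PDIA4 at 78.3, PDIA6 at 68.2, PDIA5 at 13 and ERO1B at 1.47. PDIA3 ranked below PDIA4 and PDIA6 in shCtrl and above both in shFOXK2. The changes in rank were not tested, and the HSP90B1 level in shFOXK2 is the mean of replicates that differed 2.31-fold.

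Of the thioredoxin-fold and prolyl isomerase members, 1 of 3 fell, beside 22.7% of all tested genes. TXNDC5 (ERp46), a disulfide isomerase with several thioredoxin domains, had the lowest log2 fold change of all 34 genes. It was at 24.7 and 27.6 CPM in shCtrl and 5.34 and 3.35 CPM in shFOXK2, a log2 fold change of −2.60 (adjusted P = 4.5e-05, SE 0.33, edgeR). In the GENCODE v44 annotation 60.9% of the exon bases of TXNDC5 also belong to the readthrough gene BLOC1S5-TXNDC5, so its counts may be incomplete. TXNDC11, a membrane protein with thioredoxin domains, had a log2 fold change of −0.45 (adjusted P = 0.16, edgeR), and FKBP14, a prolyl isomerase of collagen folding, one of 0.02 (adjusted P = 0.97, edgeR).

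Of 4 J proteins and the exchange factor SIL1, which act on the ATP cycle of BiP, 1 of 5 was lower. That share lay near the 22.7% of all tested genes, and HYOU1 was counted above among the chaperones. DNAJB9 (ERdj4), a J protein that is induced by XBP1 and binds IRE1α, was at 13.5 and 11.3 CPM in shCtrl and 4.99 and 4.12 CPM in shFOXK2. It fell by 1.45 on the log2 scale (adjusted P = 0.00225, SE 0.32, edgeR). DNAJB11 (ERdj3), which delivers unfolded chains to BiP, was at 141 and 142 CPM in shCtrl and 96.2 and 94 CPM in shFOXK2, a log2 fold change of −0.58 just above the threshold (adjusted P = 0.0514, SE 0.23, edgeR). SIL1, an exchange factor of BiP, had a log2 fold change of −0.53 (adjusted P = 0.102, edgeR). DNAJC10 (ERdj5), a reductase that serves degradation, and DNAJC3 (p58IPK), a J protein and PERK inhibitor, had values of 0.17 (adjusted P = 0.637) and −0.23 (adjusted P = 0.602). For these last 2 genes shCtrl replicate 1 stood above replicate 2, by 1.81-fold and 2.38-fold, and the groups overlapped.

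The 3 small luminal proteins that ER stress is known to induce were not called. SDF2L1, a partner of BiP cochaperones, was at 15.1 and 20.2 CPM in shCtrl and 20.6 and 24.1 CPM in shFOXK2, a log2 fold change of 0.34 (adjusted P = 0.336, SE 0.28, edgeR). MANF, a secreted neurotrophic factor and BiP partner, was at 90.1 and 94.9 CPM in shCtrl and 85.7 and 119 CPM in shFOXK2, with a log2 fold change of 0.15 (adjusted P = 0.65, SE 0.25, edgeR). CRELD2 was at 80.1 and 84.8 CPM in shCtrl and 53.8 and 62.3 CPM in shFOXK2, with a log2 fold change of −0.51 (adjusted P = 0.101, SE 0.24, edgeR). The groups did not overlap for SDF2L1, which was higher in shFOXK2, nor for CRELD2, which was lower. Such separation was seen in 39.2% of tested genes as higher and in 36.2% as lower. For SDF2L1 it rested on 20.2 CPM in shCtrl against 20.6 CPM in shFOXK2.

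Among the proteins that recognize chains for disposal, 3 of 4 fell, beside 22.7% of all tested genes. EDEM2, which starts the mannose trimming that marks glycoproteins for ERAD, was at 96.7 and 113 CPM in shCtrl and 20.3 and 28.3 CPM in shFOXK2. Its log2 fold change of −2.10 (adjusted P = 5.38e-05, SE 0.27, edgeR) was the lowest of the degradation genes. EDEM1, a related mannosidase-like protein and a target of XBP1, was at 160 and 130 CPM in shCtrl and 55.6 and 63 CPM in shFOXK2, a log2 fold change of −1.29 (adjusted P = 0.000799, SE 0.24, edgeR). OS9, the lectin that hands trimmed glycoproteins to the SEL1L complex, was at 155 and 173 CPM in shCtrl and 71.4 and 70.4 CPM in shFOXK2, a log2 fold change of −1.21 (adjusted P = 0.00091, SE 0.23, edgeR).

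EDEM3, the remaining paralog, could not be given a direction. It was at 37.4 and 11.3 CPM in shCtrl and 25.3 and 23.8 CPM in shFOXK2, so that both shFOXK2 libraries lay between the shCtrl libraries, which differed 3.32-fold. The log2 fold change was 0.01 (adjusted P = 0.989, SE 0.41, edgeR). Without shCtrl replicate 1 it was 1.08 (adjusted P = 0.0133), and without shCtrl replicate 2 it was −0.61 (adjusted P = 0.109).

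Of the ligase complex and channel, the ligase itself and its membrane partner HERPUD1 fell. They were 2 of 5 tested members, beside 22.7% of all tested genes. SYVN1, the HRD1 ubiquitin ligase, was at 128 and 133 CPM in shCtrl and 45.8 and 31.9 CPM in shFOXK2, a log2 fold change of −1.75 (adjusted P = 0.000158, SE 0.26, edgeR). HERPUD1, a ubiquitin-like membrane protein that joins the HRD1 complex, was at 85.3 and 92.4 CPM in shCtrl and 23.4 and 22.6 CPM in shFOXK2, a log2 fold change of −1.95 (adjusted P = 5.59e-05, SE 0.25, edgeR). SEL1L, the adaptor that stabilizes SYVN1, was at 198 and 97.4 CPM in shCtrl and 91.6 and 99.9 CPM in shFOXK2. The SEL1L groups overlapped, because shCtrl replicate 2 lay between the shFOXK2 libraries, and its log2 fold change was −0.63 (adjusted P = 0.102, SE 0.30, edgeR).

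The SEL1L value was −1.05 without shCtrl replicate 2 (adjusted P = 0.0028) and −0.07 without shCtrl replicate 1 (adjusted P = 0.864). The derlins, membrane proteins of the channel through which chains leave the ER, had lower values in both shFOXK2 libraries but were not called. That pattern was seen in 36.2% of tested genes. DERL1 was at 146 and 156 CPM in shCtrl and 119 and 113 CPM in shFOXK2, a log2 fold change of −0.38 (adjusted P = 0.182, SE 0.23, edgeR). DERL2 was at 56 and 63.8 CPM in shCtrl and 39 and 41.8 CPM in shFOXK2, a log2 fold change of −0.57 (adjusted P = 0.0729, SE 0.25, edgeR). DERL2 was called lower with an offset on GC content (−1.18, adjusted P = 0.00619) and without shCtrl replicate 1 (−0.70, adjusted P = 0.043).

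The extraction step held a fall and the only member called higher. That was 1 of 3 members in each direction, beside 22.7% of all tested genes lower and 25.7% higher. VCP, the ATPase that pulls ubiquitinated chains out of the membrane, was at 670 and 785 CPM in shCtrl and 275 and 313 CPM in shFOXK2, a log2 fold change of −1.31 (adjusted P = 0.000588, SE 0.24, edgeR). UBXN4 (erasin), an ER membrane protein that recruits VCP, was at 144 and 85.2 CPM in shCtrl and 229 and 317 CPM in shFOXK2, a log2 fold change of 1.25 (adjusted P = 0.00279, SE 0.28, edgeR). FAF2 (UBXD8), another membrane recruiter of VCP, was at 229 CPM in both shCtrl libraries and at 221 and 198 CPM in shFOXK2, with a log2 fold change of −0.13 (adjusted P = 0.671, SE 0.22, edgeR). The call of UBXN4 was lost with an offset on transcript A content (0.22, adjusted P = 0.354).

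**Figure D2:**
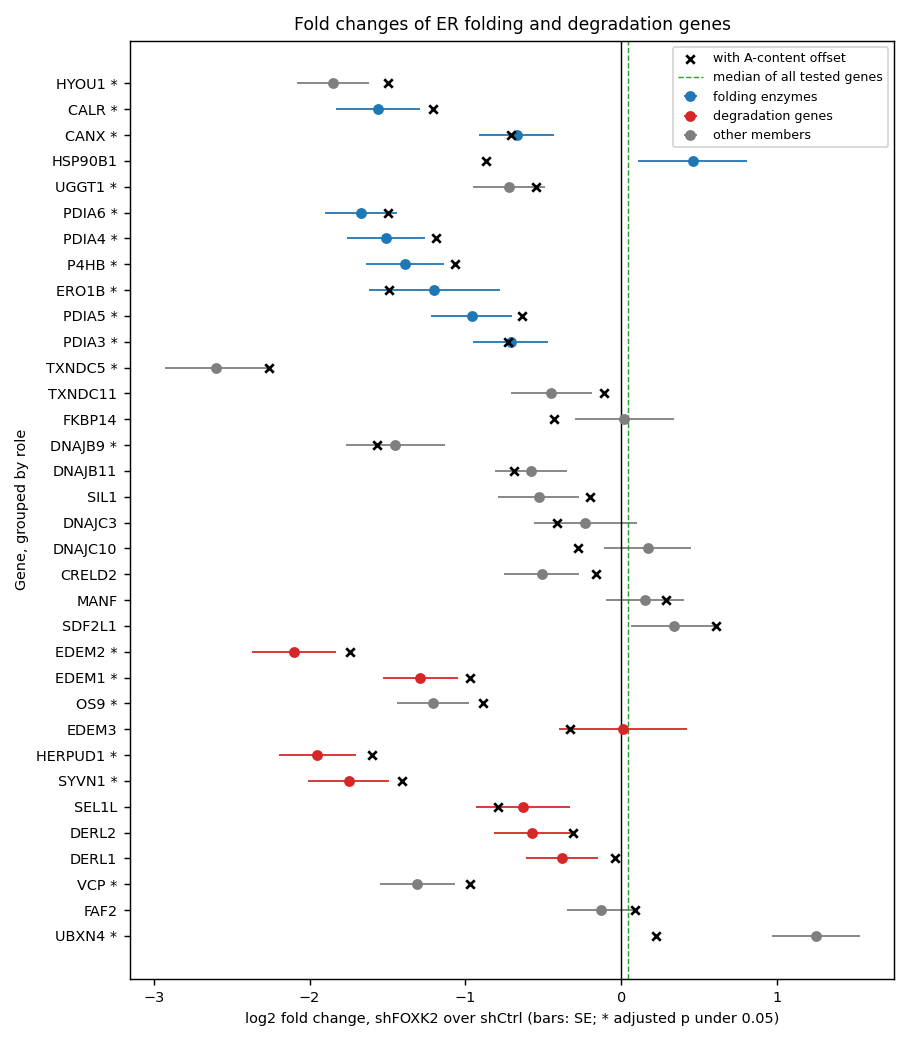
Log2 fold change of shFOXK2 over shCtrl for the 34 tested genes, with bars for the SE and the genes grouped by role; crosses give the value after an offset on transcript A content, and the dashed line the median of all tested genes, 0.04. The 18 genes called lower lie between −2.60 and −0.67, UBXN4 lies at 1.25, and the crosses of HSP90B1 and UBXN4 lie far to the left of their points, at −0.87 and 0.22.

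Folding and degradation genes were then set against each other. Of the folding enzymes, 8 of 9 (88.9%) were lower, with a median log2 fold change of −1.20. Among the 8 tested degradation genes 4 (50%) were lower, with a median of −0.96, beside 22.7% lower among all tested genes. Both counts depended on the fit. With the GC-content offset DERL2 and SEL1L (−1.10, adjusted P = 0.00223, edgeR) were also called lower. The A-content offset added SEL1L (−0.79, adjusted P = 0.0146, edgeR) and HSP90B1 (−0.87, adjusted P = 0.0453, edgeR), the folding enzyme not called in the reported fit. Without the filter SEL1L was called too (−0.73, adjusted P = 0.021, edgeR). CANX lost its call with a replicate block (adjusted P = 0.0575, edgeR) and with at least 10 counts in every library (adjusted P = 0.0561, edgeR). ERO1B lost its call with library size alone (adjusted P = 0.087, edgeR). EDEM1, EDEM2, SYVN1, HERPUD1 and the other folding enzymes called lower kept theirs in each of the 10 other fits. Without shFOXK2 replicate 1, PDIA3 stood at −0.49 and PDIA5 at −0.80, and the medians were −0.80 in folding and −0.88 in degradation. The mean log2 CPM of the folding enzymes exceeded that of the degradation genes by 2.05 and 2.21 in shCtrl and by 1.90 and 2.35 in shFOXK2, so the shCtrl values lay inside the range of the shFOXK2 values. From shCtrl to shFOXK2 the class mean changed by −1.05 in folding and by −1.04 in degradation, a difference of −0.01. The difference of the class medians, −0.24, changed sign with a GC-content offset (0.06), with that offset and a replicate block (0.04), and without shFOXK2 replicate 1 (0.09). Within the degradation genes the fitted values ran from −2.10 to 0.01, with EDEM2, HERPUD1 and SYVN1 below the lowest folding enzyme and SEL1L, DERL1, DERL2 and EDEM3 not called.

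The 18 falls differed in how firmly they stood. A set of 13 members (CALR, HYOU1, P4HB, PDIA4, PDIA6, TXNDC5, DNAJB9, EDEM1, EDEM2, OS9, SYVN1, HERPUD1 and VCP), were called lower in each of 10 other fits and in each of 4 fits that left out a library. The remaining 5, CANX, UGGT1, PDIA3, PDIA5 and ERO1B, lost the call in at least 1 fit. Without shFOXK2 replicate 1, the least deeply sequenced library, the members' median was −0.60. HSP90B1 then stood at 0.94 and UBXN4 at 1.46.

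Base composition moved with the fold changes. The A content of a gene's canonical transcript correlated with its log2 fold change across genes, with Spearman's rho of 0.46 over 34 members and 0.33 over the 14399 tested genes with a composition value, which share the same 4 libraries and are not independent replicates. Among the 1187 genes with at least 32% A the median log2 fold change was 1.28, and the 2 members in that range were HSP90B1 (33.5% A) and UBXN4 (32.6% A). UBXN4, at 1.25, stood near that median, and HSP90B1, at 0.46, stood below it. Between 24% and 26% A the median of 1721 genes was −0.33 and 32.7% of them fell. The 9 members in that range had a median of −1.31 and 8 fell, DERL1 being the exception. In other ranges, 1 of 3 members fell against 33.3% of genes (under 22% A), 3 of 5 against 35.5% (22% to 24%) and 2 of 5 against 27.3% (26% to 28%). The shares were 3 of 6 against 17.4% (28% to 30%), 1 of 4 against 7.98% (30% to 32%) and 0 of 2 against 3.37% (at least 32%).

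**Figure D3:**
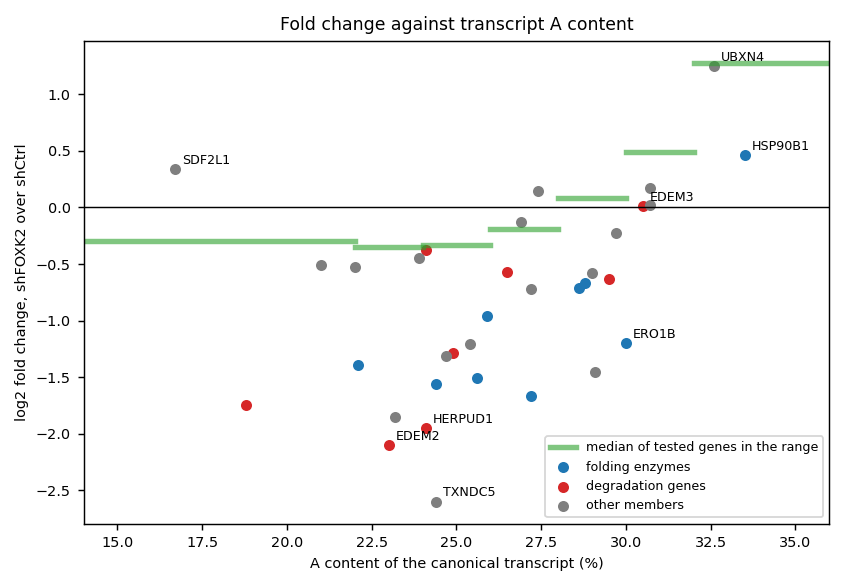
Log2 fold change of shFOXK2 over shCtrl against the percentage of A bases in the canonical transcript for the 34 tested genes; horizontal bars give the median of all tested genes in each range of A content. Of the 34 members, 31 lie below the bar of their range, HSP90B1 among them, UBXN4 lies close to it, and SDF2L1, MANF and FAF2 lie above it.

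When each library was given a smooth offset on A content, 21 members were lower and 1 higher, against 22.7% and 28.6% of all tested genes. The median of all tested genes was 0.09 with this offset, and the median of the gene-by-gene shifts was 0.24. HSP90B1 then stood at −0.87 (adjusted P = 0.0453, edgeR), UBXN4 at 0.22 (adjusted P = 0.354) and SDF2L1, the member with the least A (16.7%), at 0.61 (adjusted P = 0.0475). The direction of HSP90B1 thus differed between the fits, and the call of UBXN4 was lost. DNAJB11 (−0.69, adjusted P = 0.0129) and SEL1L (−0.79, adjusted P = 0.0146) were called lower with the offset.

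The same property ran through the replicates. A set of 8 members was at least 1.5 times higher in shCtrl replicate 1 than in shCtrl replicate 2, and these 8 (HSP90B1, ERO1B, FKBP14, DNAJC3, DNAJC10, EDEM3, SEL1L and UBXN4) each had at least 29.5% A, where the median member had 26.2%. Across the 34 members the ratio of the shCtrl replicates correlated with A content with a Spearman's rho of 0.81, and the ratio of shFOXK2 replicate 2 to replicate 1 with a rho of 0.31. What sets the shCtrl libraries apart in this way was not tested.

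The falls were also set beside the promoter matches. Of the 9 members with ERSE or ERSE-II, 6 were lower (CALR, CANX, HYOU1, PDIA6, ERO1B and HERPUD1), and HSP90B1, CRELD2 and SDF2L1 were not called. Of the 22 tested members with a window and neither element, 11 were lower. EDEM2, SYVN1, PDIA4 and P4HB, with log2 fold changes from −2.10 to −1.39, were among those without a match. Outside the members, 6 of 10 tested genes with the longer element and 2 of 11 with ERSE-II were lower. Among all tested genes 22.7% were lower, a share that 2 of 11 does not exceed.

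**Figure D4:**
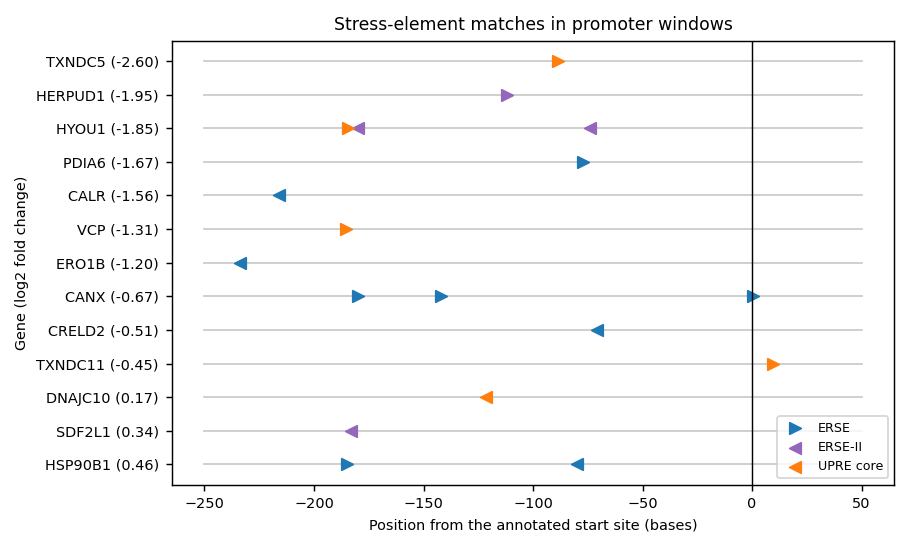
Position of each ERSE, ERSE-II and UPRE core match in the promoter windows of 13 members, in bases from the annotated start site, with the arrowhead giving the strand and the log2 fold change after each gene name. HSP90B1 has a match on each strand at a log2 fold change of 0.46, and CANX has 3 marks because 1 genomic site lies in the windows of several annotated starts.

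The regulators of these genes and other genes of the same routes were read from lists assembled from general knowledge. BiP (HSPA5), the central chaperone of the lumen, was at 1378 and 1376 CPM in shCtrl and 345 and 462 CPM in shFOXK2, a log2 fold change of −1.77 (adjusted P = 0.000107, SE 0.25, edgeR). Of 8 UPR sensors and factors, ERN1 (−2.06, adjusted P = 6.81e-05), XBP1 (−1.73, adjusted P = 0.000154), EIF2AK3 (−1.61, adjusted P = 0.00115) and MBTPS1, the protease that activates ATF6 (−1.88, adjusted P = 4.34e-05), fell. These 4 of 8 stand beside 22.7% of all tested genes called lower. ATF6 had a log2 fold change of −0.56 (adjusted P = 0.117, SE 0.28, edgeR) and was called lower with the A-content offset (−0.76, adjusted P = 0.00828), with the GC-content offset (−0.83, adjusted P = 0.00518) and without shCtrl replicate 2 (−0.86, adjusted P = 0.0148). Without shCtrl replicate 1 the ATF6 value was −0.21 (adjusted P = 0.581).

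The KDEL receptors, which return chaperones that carry a KDEL-type signal from the Golgi to the ER, fell in 3 of 3 genes. Among all tested genes 22.7% fell. KDELR3 was at 35 and 42 CPM in shCtrl and 12.1 and 11.8 CPM in shFOXK2 (log2 fold change −1.69, adjusted P = 0.000264, edgeR), and KDELR1 and KDELR2 had log2 fold changes of −0.82 (adjusted P = 0.00932) and −0.74 (adjusted P = 0.0166). With the A-content offset KDELR1 and KDELR2 were no longer called (adjusted P = 0.0515 and 0.0919).

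Of 30 further ER chaperones and folding enzymes, 28 were tested and 6 were lower (21.4%, beside 22.7% of all tested genes). Another 5 were higher, beside 25.7% of all tested genes, and the median log2 fold change of the 28 was −0.11. FKBP9, a prolyl isomerase, had the lowest value after HSPA5, −1.57 (adjusted P = 0.000132, SE 0.23, edgeR). CNPY2, a small ER protein, had the highest, 2.16 (adjusted P = 0.000173, SE 0.33, edgeR), and CLGN, a calnexin homolog of the testis with 35% A, stood at 1.58 (adjusted P = 0.00351, SE 0.37, edgeR). With the A-content offset CNPY2 kept its value, at 2.26 (adjusted P = 0.000438), and CLGN did not, at −0.17 (adjusted P = 0.681).

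Of 29 further ERAD genes, all 29 tested, 10 were lower (34.5%, beside 22.7% of all tested genes). Another 4 were higher, beside 25.7% of all tested genes, and the median log2 fold change of the 29 was −0.42. FAM8A1, a membrane partner of HRD1, had the lowest value, −1.81 (adjusted P = 0.000866, SE 0.34, edgeR), and the ubiquitin ligase RNF5 stood at −1.31 (adjusted P = 0.00155, SE 0.27, edgeR). UBE2G2, a ubiquitin-conjugating enzyme of ERAD, was at 49.2 and 47 CPM in shCtrl and 133 and 146 CPM in shFOXK2, a log2 fold change of 1.54 (adjusted P = 0.000206, SE 0.24, edgeR) that stood at 1.87 with the A-content offset (adjusted P = 0.000204). DNAJB14, a J protein of the ER membrane with 33.5% A, had a log2 fold change of 1.57 (adjusted P = 0.00109, SE 0.31, edgeR) and one of 0.31 with the offset (adjusted P = 0.223). The members and these lists were not tested against each other.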

How the data were processed

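RNA-seq of 4 OVCAR-5 libraries was analysed. According to the study's methods and the processing notes, polyadenylated RNA was made into libraries with a NEBNext Ultra II RNA kit, reads were aligned to GRCh38 (hg38) with STAR 2.5.2, and HTSeq counted reads per gene. The deposited values are raw, unnormalized counts by gene symbol, with each library in its own table. The strand setting and annotation were not given in the sources used here, so reads of overlapping genes on opposite strands cannot be told apart. In GENCODE v44, 77% of the exon bases of DERL3 overlap SMARCB1 and 25.2% of those of PDIA6 overlap ATP6V1C2, each on the opposite strand. FOXK2 ChIP-seq was not analysed here.

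Groups came from the sample titles. Counts were filtered with filterByExpr, TMM-scaled and compared with the 2-sided edgeR 4.0.16 quasi-likelihood test in R 4.3.3, with Benjamini-Hochberg adjustment over 16417 genes and a threshold of 0.05. The SE was taken as the size of the log2 fold change over √F. With 2 libraries against 2, an exact permutation test cannot go below 0.333, so p-values rest on variance shared between genes. Replicates were not copies of 1 library, with chi-square values per gene of 36.4 (shCtrl) and 24.8 (shFOXK2). Totals limit precision at low counts, and floors cover counting error only, since reads had no molecular identifiers.

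All 35 members are named. Of the other lists, HSPA5, ERN1, XBP1, ATF6 and the 2 lowest and 2 highest called genes of each list whose mean log2 CPM reached 3 are named; EIF2AK3, KDELR2, PDIA3P1 and MALAT1 were added after their values were seen. The members and lists were chosen with earlier results of these data known. Transcript composition came from GENCODE v44 and promoters from RefSeq. Alternatives were DESeq2 1.42.0, RLE factors, library size alone, no filter, at least 10 counts in every library, offsets on GC or A content (lowess, span 0.2), a replicate block and leaving out each library. The test was also tried on simulated counts in which few genes changed and base composition played no part. That trial does not bear on the composition trend or the many calls here.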

Additional observations from a re-analysis of the deposited data

How the results depend on the processing

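With 2 libraries in each group, 1 library can set a value, and A-rich members differed between the shCtrl libraries, which limits ERO1B, EDEM3, SEL1L, FKBP14, DNAJC3, DNAJC10, HSP90B1 and UBXN4. The number of members lower was 17 to 23 under the 10 other fits. The share of all tested genes called lower also varied. It ran from 12.3% without the filter (20 members lower) to 24.2% with the GC-content offset and the block (23 members lower). The median of the gene-by-gene shifts in log2 fold change from the reported fit was 0.20 with the GC-content offset, 0.24 with the A-content offset, 0.18 with the GC-content offset and the block and −0.10 without the filter. With DESeq2 and without the filter, DERL3 enters as the last of 9 degradation genes. The median of the degradation genes was then the value of SEL1L, −0.70 with DESeq2 and −0.73 without the filter. The folding median minus the degradation median was −0.58 and −0.57 in these 2 fits. The cause of the following changes was not tested. The median of the degradation genes was −1.19 with the GC-content offset and −1.16 with that offset and the replicate block. The difference of the class medians was 0.06 with the GC-content offset and 0.04 with that offset and the block. The members' median was −0.82 with the GC-content offset and −0.83 with it and the block.

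Leaving out 1 library at a time, the members' median ranged from −0.83 to −0.60. The folding median ranged from −1.29 to −0.80 and the degradation median from −1.24 to −0.88. The difference of these class medians ran from −0.17 to 0.09. HSP90B1 ranged from −0.31 to 0.94, EDEM3 from −0.61 to 1.08, DNAJC3 from −0.72 to 0.49, FKBP14 from −0.37 to 0.52, DNAJC10 from −0.19 to 0.62 and MANF from −0.15 to 0.37.

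Signs of members not called in the reported fit changed as follows. FKBP14 was −0.06 with DESeq2, −0.09 without the filter, −0.55 with the GC-content offset with or without the block, and −0.43 under the A-content offset. EDEM3 was −0.06, −0.10, −0.52, −0.42 with the block and −0.33 in these fits, and −0.0044 with RLE factors. DNAJC10 was −0.56 with the GC-content offset with or without the block, and −0.28 under the A-content offset; with the GC-content offset it was called lower (adjusted P = 0.0225, or 0.0193 with the block), as was FKBP14 with offset and block (adjusted P = 0.0371). FAF2 was 0.0017 with the GC-content offset and 0.09 with the A-content offset, and HSP90B1 was −0.87 with the latter.

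The replicate numbers in the titles carry no stated meaning, and deviations of same-numbered libraries had a correlation of −0.113. A replicate block gave 7270 calls, with 20.2% of all tested genes lower, and 17 lower members, CANX being lost (adjusted P = 0.0575, edgeR). A block on crossed numbers, which was chosen after seeing the data, gave 8350 calls, with 23.9% of all tested genes lower, and 19 lower members. Of the log2 fold changes of the 34 tested members over the 10 fits, 305 kept their direction and side of the threshold. Another 14 kept their direction and newly passed it, 4 no longer did and 17 changed sign. Among those that changed sign, HSP90B1, DNAJC10 and FKBP14 also newly passed the threshold in at least 1 fit. With 1 library left out, 113 kept both, 6 newly passed, 9 no longer did and 8 changed sign.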
